A study of Mus musculus with 18 samples.

Results

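The Nlrp genes that mouse oocytes express were followed in the ovaries of F1 females whose mothers ate a high-methionine diet, at postnatal day (Pd) 3, Pd7 and Pd21. The members were Nlrp2, Nlrp4a, Nlrp4b, Nlrp4c, Nlrp4f, Nlrp5, Nlrp9a, Nlrp9b, Nlrp9c and Nlrp14, which is 10 of the 30172 gene symbols in the data, picked by symbol. All animals were wild-type C57BL/6J mice. F0 dams ate food with 3% methionine (F1-HHcy, after the hyperhomocysteinemia the diet is meant to cause) or normal food (F1-Control), and per the labels the diet began 4 weeks before mating and went on until the pups were weaned. The methods of the study give a longer time on the diet before mating than the labels do. Whole ovaries were used, and 3 libraries were made for each diet and day, 18 in all. It is not given in the sources used here whether a library held 1 pup or several, so p-values measure the spread between libraries only. The question behind each comparison of diets was how the maternal diet bears on the ovary before puberty.

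Nlrp proteins carry a nucleotide-binding domain and leucine-rich repeats. Relatives such as Nlrp3 build inflammasomes in immune cells, but a branch of the family is read in oocytes and serves the egg and the early embryo. Nlrp5, also called Mater, Nlrp2 and Nlrp4f belong to the subcortical maternal complex (SCMC), an assembly under the oocyte membrane that the embryo needs for its first divisions. Oocytes rest in primordial follicles and start to store maternal RNA and protein when the follicle is activated and the oocyte grows.

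Chromosome 7 holds 9 of the genes and Nlrp4f lies on chromosome 13 (GRCm38, GENCODE M21, all protein coding). Nlrp9c (chr7:26322473-26403700, minus strand), Nlrp4a (chr7:26435113-26476142, plus strand) and Nlrp9a (chr7:26535023-26575615, plus strand) lie beside each other. Nlrp9b spans chr7:19991465-20073306 and Nlrp5 spans chr7:23385889-23441922, both on the plus strand. Nlrp2 (chr7:5298547-5351035, minus strand), Nlrp4c (chr7:6045161-6105150, plus strand) and Nlrp4b (chr7:10687789-10730168, plus strand) lie nearer to the chromosome start, and Nlrp14 (chr7:107166990-107198102, plus strand) lies apart from the rest. Nlrp4f spans chr13:65177111-65205977 on the minus strand. Because the genes are paralogs, shared sequence was counted in their annotated transcripts. Stretches of 50 bases that also occur in another gene made up 0% (Nlrp4b and Nlrp14) to 10.7% (Nlrp4c) of all stretches of a member, and stretches of 100 bases at most 2.11% (Nlrp9b). How the counting split reads between these copies is not known, and this share gives its scale.

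Sequence before 1 annotated start is shown for each of the 9 members that RefSeq (GRCm38.p6) covers, so that close paralogs can be set side by side. RefSeq gave 12 starts, with more than 1 for Nlrp4a, Nlrp4b and Nlrp5, and for Nlrp4a and Nlrp5 the start with the motif below is the one shown. The 100 bases before the start are printed 5′ to 3′ on the strand of the gene, and capitals mark CCAAT or, on the other strand, ATTGG. This motif was chosen after the sequences had been seen.
Nlrp9a, chr7:26534923-26535022, plus strand: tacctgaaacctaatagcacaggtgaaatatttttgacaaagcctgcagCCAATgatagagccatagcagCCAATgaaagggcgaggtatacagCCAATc
Nlrp9c, chr7:26403701-26403800, minus strand: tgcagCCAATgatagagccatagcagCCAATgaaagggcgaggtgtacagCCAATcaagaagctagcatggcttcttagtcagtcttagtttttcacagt
Nlrp4a, chr7:26435514-26435613, plus strand: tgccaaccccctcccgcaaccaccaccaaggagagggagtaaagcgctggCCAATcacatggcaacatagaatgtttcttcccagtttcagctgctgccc
Nlrp4c, chr7:6045061-6045160, plus strand: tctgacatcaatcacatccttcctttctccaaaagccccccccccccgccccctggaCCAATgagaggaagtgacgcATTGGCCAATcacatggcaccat
Nlrp2, chr7:5351036-5351135, minus strand: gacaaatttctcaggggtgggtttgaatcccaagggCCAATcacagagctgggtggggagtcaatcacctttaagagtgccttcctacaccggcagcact
Nlrp5, chr7:23385789-23385888, plus strand: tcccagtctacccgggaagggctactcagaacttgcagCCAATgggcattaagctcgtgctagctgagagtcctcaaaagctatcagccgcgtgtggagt
Nlrp4b, chr7:10687693-10687792, plus strand: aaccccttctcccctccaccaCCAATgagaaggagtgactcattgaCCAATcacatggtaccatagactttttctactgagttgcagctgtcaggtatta
Nlrp9b, chr7:20007923-20008022, plus strand: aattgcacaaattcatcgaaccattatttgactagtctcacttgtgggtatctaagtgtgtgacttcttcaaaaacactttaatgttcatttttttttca
Nlrp4f, chr13:65205717-65205816, minus strand: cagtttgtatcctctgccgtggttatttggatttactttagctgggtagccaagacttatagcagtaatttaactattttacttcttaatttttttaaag
Nlrp9b and Nlrp4f, and the starts of Nlrp4a and Nlrp5 that are not shown, hold no copy in these 100 bases. Set against the gene spans above, the windows shown for Nlrp4a, Nlrp9b and Nlrp4f lie inside the gene. Those of Nlrp4b and Nlrp4f overlap an exon of the same gene. The lack of the motif in Nlrp9b and Nlrp4f is thus read from sequence within the gene. In Nlrp9a the motif began 51, 30 and 6 bases before the start, and in Nlrp9c 95, 74 and 50 bases before it. Over the 250 bases before the start, Nlrp9a and Nlrp9c were identical at 195 of 203 aligned bases (96.1%). Nlrp4a shared 182 of 230 aligned bases with Nlrp4b (79.1%) and 162 of 213 with Nlrp4c (76.1%). CCAAT was present on either strand within 100 bases before the start in 8 of the 12 member starts, against 18.9% of 32851 promoters in the genome. At least 3 copies were found for Nlrp4c, Nlrp9a and Nlrp9c, against 0.457% of all promoters. The Nlrp4b starts share a copy, and close paralogs share sequence, so the starts are not independent. Other strings were counted in the same 100 bases. CANNTG was present in 7 of the 12 starts against 34.4% of all promoters, and TGATTG in 7 against 6.7%. TAATTG was present in 0 against 2.6%, and TAATTA in 0 against 1.6%. Because CCAAT was chosen from these sequences, the shares are a description and no test of enrichment. A match is a string of letters and is not a measured binding site.

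Depth was 33630253 to 39398901 fragments per library. Levels are FPKM, fragments per kilobase of transcript, scaled to the depth of the library, so that levels of different genes can be set side by side. Pd3 and Pd7 are labelled as batch 1 and Pd21 as batch 2, so the diets were compared within a batch, and age and batch cannot be told apart where Pd21 is set against another day. In every group the markers of granulosa cells and germ cells were found, the summed level of 8 granulosa markers being at least 264 FPKM and that of 5 germ cell markers at least 209 FPKM in each library. Markers of several cell types differed between the diets. The summed level of the granulosa markers was higher in F1-HHcy with no overlap. It was 349 to 548 against 264 to 305 FPKM at Pd3 and 555 to 893 against 285 to 544 FPKM at Pd7. Of these markers, Amh and Inha were called higher at Pd3 and Inha and Nr5a2 at Pd7. Not all of them rose, since 2 of 6 tested at Pd3 and 2 of 8 at Pd7 had a log2 fold change below 0. At Pd3 all 6 erythroid genes were called lower in F1-HHcy (summed 780 to 1108 against 3914 to 11214 FPKM), and at Pd7 all 6 theca genes were called higher (1136 to 1195 against 216 to 449 FPKM) and all 5 tested erythroid genes lower. Of the 3 tested adipocyte genes, Cfd and Plin1 were called higher at Pd7. At Pd21 all 7 genes of multiciliated and oviduct cells were called lower (5.75 to 10.8 against 96.2 to 485 FPKM). The part of these differences in the results below was not tested.

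The levels of the members fell into separate ranges. Nlrp14 and Nlrp5 were the most abundant, with group means from 119 to 433 FPKM for Nlrp14 and from 109 to 216 FPKM for Nlrp5. Nlrp4f followed with group means from 57.7 to 79.3 FPKM, and Nlrp4c stayed low, from 2.41 to 5.48 FPKM. The other 6 members were close to 0 in F1-Control ovaries at Pd3 and reached group means between 14.3 FPKM (Nlrp9a) and 36.6 FPKM (Nlrp9b) in F1-Control ovaries at Pd21. For Nlrp2, Nlrp4a, Nlrp4b, Nlrp9a, Nlrp9b and Nlrp9c the order from lowest to highest began in the same way, with F1-Control Pd3, then F1-Control Pd7, then F1-HHcy Pd3. The first step had no overlap between libraries in these genes, but the share of all genes without overlap was not set beside it. Nlrp2, Nlrp9a, Nlrp9b and Nlrp9c reached 1 FPKM in no F1-Control library at Pd3 and in all at Pd7. Their lack of overlap follows from the values by which they entered the test of that step. The second step, from F1-Control Pd7 to F1-HHcy Pd3, had overlap in all 6 genes. Nlrp4c and Nlrp4f ran the other way, with F1-Control Pd21 lowest and F1-Control Pd3 highest, and every neighbour in that order overlapped.

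**Figure D1:**
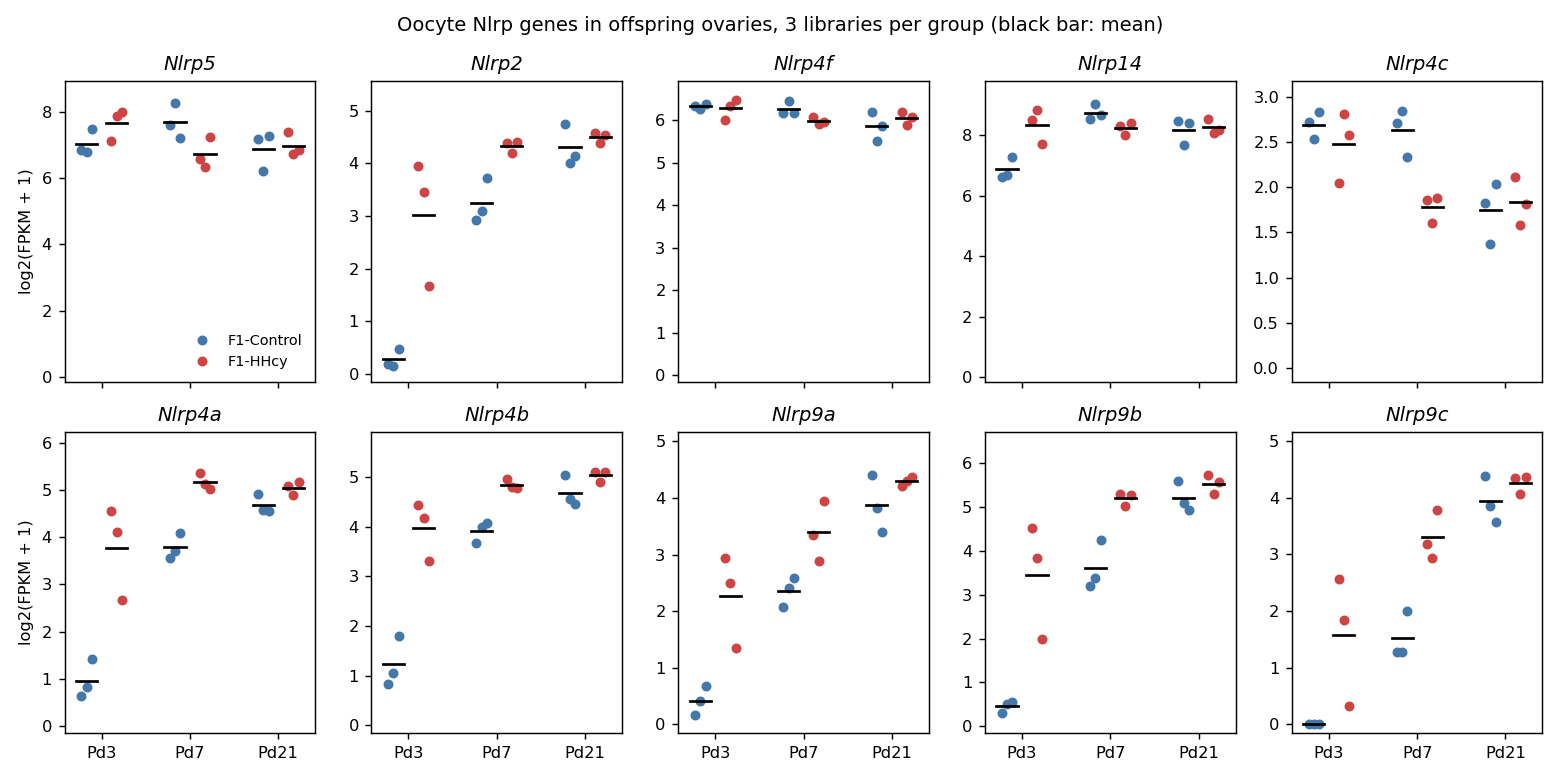
Level of each member as log2(FPKM + 1) by postnatal day, with blue points for F1-Control libraries, red points for F1-HHcy libraries (3 each) and a black bar for their mean; each panel has its own vertical scale. At Pd3 the F1-HHcy libraries of Nlrp2, Nlrp4a, Nlrp4b, Nlrp9a, Nlrp9b, Nlrp9c and Nlrp14 lie above all F1-Control libraries, whereas Nlrp4f stays between 44.2 and 87.5 FPKM in all 18 libraries. Of all genes tested at Pd3, 11.8% lay higher in F1-HHcy without overlap. For Nlrp2, Nlrp9a and Nlrp9b the separation is required by their entry into the test through F1-HHcy alone.

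At Pd3, ovaries of the F1-HHcy group held more RNA of most members. Of the 9 members tested, 6 were called higher (Nlrp2, Nlrp4a, Nlrp4b, Nlrp9a, Nlrp9b and Nlrp14) and none lower, while 1.64% of the 13277 genes tested were called higher and 1.43% lower. A call is an adjusted p under 0.05 in limma on log2(FPKM + 1) with Benjamini-Hochberg adjustment over all genes tested. The median log2 fold change of the 9 members was 1.84, against -0.03 over all genes. Nlrp2, Nlrp9a and Nlrp9b reached 1 FPKM in no F1-Control library and entered the test through F1-HHcy alone. Their share of the count and of the median, which is the value of Nlrp9a, is therefore no support for either. The other members tested ran from -0.22 (Nlrp4c) to 2.82 (Nlrp4a), with Nlrp4a, Nlrp4b and Nlrp14 called. Of those called, Nlrp4a reached 1 FPKM in 1 F1-Control library and Nlrp4b in 2. Both thus passed the filter of 3 libraries only with the help of F1-HHcy, which limits their support as well. Nlrp14 reached 1 FPKM in all libraries of both groups. In whole ovaries, a change in the number of oocytes at a given stage and a change in RNA per oocyte cannot be told apart.

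Among the SCMC members, Nlrp2, which the oocyte needs to pass on a viable embryo, was 0.142, 0.115 and 0.393 FPKM in the F1-Control libraries and 14.3, 10.02 and 2.19 FPKM in the F1-HHcy libraries (log2 fold change 2.75, SE 0.52, adjusted p = 0.0401). All F1-HHcy libraries lay above the controls, which the entry of the gene through F1-HHcy alone requires. The lowest F1-HHcy library was much nearer to the controls than the other 2. Nlrp5 was 114, 111 and 180 FPKM in F1-Control and 139, 232 and 254 FPKM in F1-HHcy (0.61, SE 0.27, adjusted p = 0.232). Here the groups overlapped. Nlrp4f was 79.7, 75.8 and 82.5 FPKM in F1-Control and 63.0, 80.0 and 87.5 FPKM in F1-HHcy (-0.06, SE 0.14, adjusted p = 0.832), with the controls inside the range of the F1-HHcy libraries.

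Nlrp14, a germ cell member that the early embryo also depends on, was 98.4, 102 and 156 FPKM in F1-Control and 363, 459 and 207 FPKM in F1-HHcy, a 2.88-fold higher mean (log2 fold change 1.48, SE 0.31, adjusted p = 0.04999). The groups did not overlap, as was the case for 11.8% of all genes with F1-HHcy higher and 16.1% with F1-HHcy lower. Nlrp4a was 0.550, 0.762 and 1.68 FPKM in F1-Control and 22.6, 16.2 and 5.33 FPKM in F1-HHcy, 14.7-fold higher in the mean (2.82, SE 0.46, adjusted p = 0.0303). Nlrp4b was 0.796, 1.08 and 2.47 FPKM in F1-Control and 20.6, 17.04 and 8.95 FPKM in F1-HHcy, 10.7-fold higher (2.74, SE 0.34, adjusted p = 0.0180). Both genes rose with no overlap between the groups. Their paralog Nlrp4c did not follow, with 5.57, 4.79 and 6.08 FPKM in F1-Control and 3.11, 5.99 and 4.96 FPKM in F1-HHcy (-0.22, SE 0.21, adjusted p = 0.574).

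The Nlrp9 genes are 3 close copies of 1 oocyte gene. Nlrp9a was 0.119, 0.326 and 0.606 FPKM in F1-Control and 6.65, 4.64 and 1.56 FPKM in F1-HHcy (log2 fold change 1.84, SE 0.38, adjusted p = 0.04999). Nlrp9b was 0.226, 0.421 and 0.477 FPKM in F1-Control and 22.1, 13.3 and 2.96 FPKM in F1-HHcy, 34.1-fold higher in the mean (3.00, SE 0.57, adjusted p = 0.0401). Neither gene showed overlap between the groups, which their entry through F1-HHcy alone requires and which is no further support. Both were lowest in the F1-HHcy library that was also lowest for Nlrp2. Nlrp9c was not tested, since only 2 libraries reached 1 FPKM. It had 0, 0 and 1 fragments in the F1-Control libraries (3 fragments would be 0.0253 to 0.0258 FPKM) and 589, 305 and 29 fragments in the F1-HHcy libraries. Its summed fragments relative to depth were 920 times those of F1-Control, with an exact 95% interval from 165 to 36359 that covers counting error only.

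Leaving out 1 library gave between 0 and 3 calls among the members at Pd3. Without F1-HHcy replicate 3, the library with the lowest levels of Nlrp2 and the Nlrp9 genes, Nlrp4a, Nlrp4b and Nlrp14 were called and Nlrp2, Nlrp9a and Nlrp9b fell out of the test since fewer than 3 libraries reached 1 FPKM. Nlrp4b was the 1 call when F1-HHcy replicate 1 or F1-Control replicate 3 was dropped, and none when 1 of the other 3 libraries was. Limma-voom on recovered fragments gave 2 calls, and without the filter on low values neither a member nor any other gene was called. With the replicate number as a block there were no calls.

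**Figure D2:**
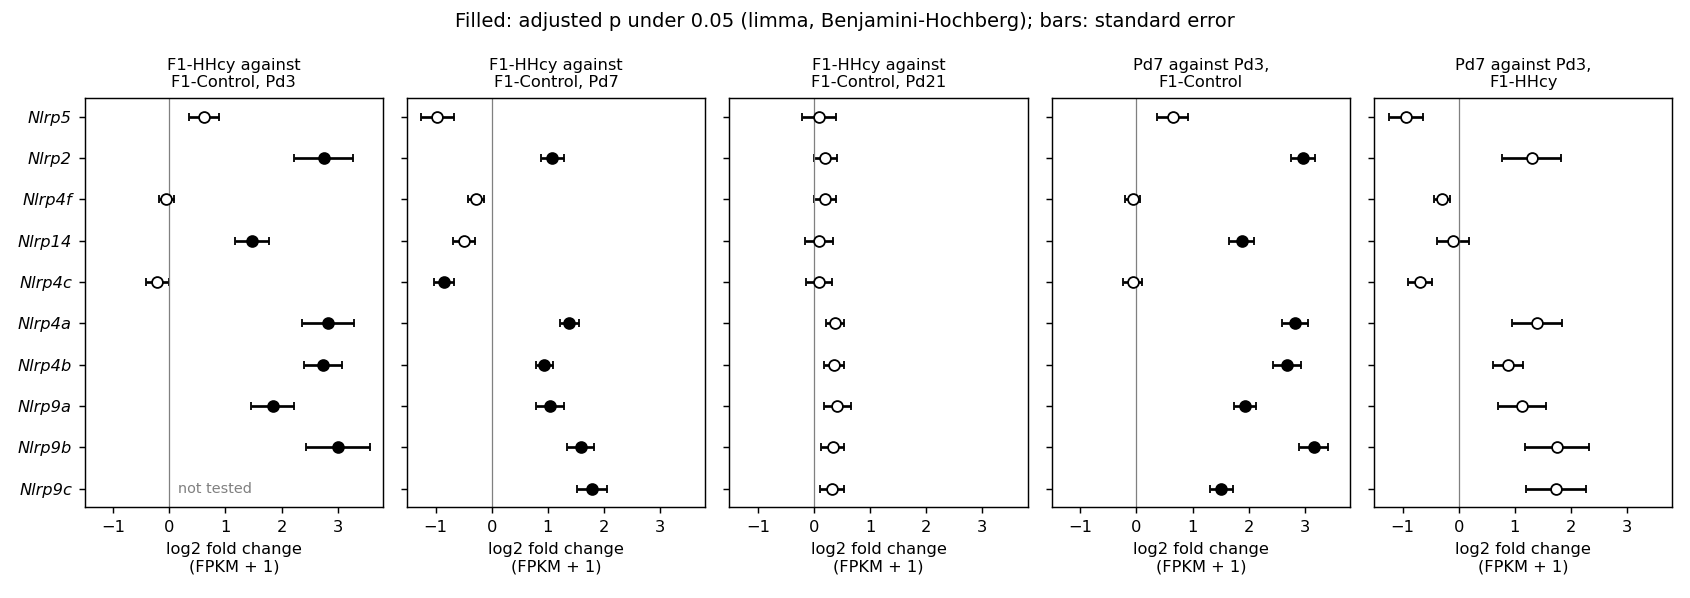
Log2 fold change of log2(FPKM + 1) for each member in the 3 comparisons of the diets and the 2 comparisons of Pd7 with Pd3, with bars for the standard error of the limma fit and filled circles for an adjusted p under 0.05. Filled circles lie to the right at Pd3 and Pd7 and in F1-Control from Pd3 to Pd7, except for Nlrp4c at Pd7 at -0.85, and none is filled at Pd21.

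At Pd7 the members split. Of the 10 tested, 6 were called higher in F1-HHcy (Nlrp2, Nlrp4a, Nlrp4b, Nlrp9a, Nlrp9b and Nlrp9c) and Nlrp4c was called lower, with 5.88% of the 13299 genes tested called higher and 5.98% lower. The median log2 fold change was 0.99 for the members and -0.0015 over all genes. The 6 higher genes were expressed above 1 FPKM in all 6 libraries. Leaving out 1 library gave 5 or 6 higher members, with Nlrp9a lost in 4 of the 6 refits. Without the filter on low values 1 higher member was called, Nlrp4a, and in 1 model of all 18 libraries 4 were, without Nlrp2 and Nlrp9a. The lower call for Nlrp4c needed F1-HHcy replicates 1 and 2 and F1-Control replicate 2, being lost when any of them was left out, and leaving out F1-Control replicate 3 gave 2 lower members, Nlrp4c and Nlrp5.

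Nlrp4a was 10.7, 12.1 and 16.1 FPKM in F1-Control and 40.2, 33.9 and 31.6 FPKM in F1-HHcy, a 2.71-fold higher mean (log2 fold change 1.39, SE 0.17, adjusted p = 0.00296). Nlrp4b was 11.8, 14.9 and 15.8 FPKM in F1-Control and 30.1, 26.9 and 26.7 FPKM in F1-HHcy (0.93, SE 0.15, adjusted p = 0.00658). Nlrp4c was 5.51, 6.18 and 4.03 FPKM in F1-Control and 2.63, 2.04 and 2.68 FPKM in F1-HHcy (-0.85, SE 0.18, adjusted p = 0.0170). The 3 paralogs thus showed no overlap between the groups in opposite directions, the share of all genes without overlap being 19.5% in either direction. Nlrp4f, from the same branch but on another chromosome, was 71.1, 86.1 and 70.8 FPKM in F1-Control and 66.6, 59.3 and 60.5 FPKM in F1-HHcy (-0.28, SE 0.14, adjusted p = 0.205). Its F1-HHcy libraries were all below the controls without passing the test.

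Nlrp9c, nearly absent from the controls at Pd3, was 1.43, 1.44 and 2.98 FPKM in F1-Control and 8.12, 6.68 and 12.8 FPKM in F1-HHcy at Pd7, a 4.72-fold higher mean (log2 fold change 1.79, SE 0.26, adjusted p = 0.00474). Nlrp9b was 8.20, 9.50 and 18.03 FPKM in F1-Control and 38.3, 31.6 and 37.6 FPKM in F1-HHcy (1.58, SE 0.25, adjusted p = 0.00637). Nlrp9a was 3.22, 4.28 and 5.02 FPKM in F1-Control and 9.20, 6.42 and 14.4 FPKM in F1-HHcy (1.04, SE 0.25, adjusted p = 0.0305). All 3 copies rose without overlap of the groups. Nlrp2 rose as well, from 6.58, 7.54 and 12.1 FPKM in F1-Control to 19.9, 17.3 and 20.1 FPKM in F1-HHcy (1.08, SE 0.20, adjusted p = 0.0111).

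The 2 most abundant members stood on the other side. Nlrp5 was 195, 307 and 147 FPKM in F1-Control and 95.01, 80.2 and 151 FPKM in F1-HHcy (log2 fold change -0.97, SE 0.29, adjusted p = 0.0594). One F1-HHcy library overlapped the controls, and the gene passed only the looser criterion that the study used (p under 0.05 before adjustment, and over 0.58 on the log2 scale), which 7.35% of all genes passed in this direction. Nlrp14 was 372, 525 and 402 FPKM in F1-Control and 319, 259 and 338 FPKM in F1-HHcy (-0.50, SE 0.20, adjusted p = 0.127). Its groups did not overlap, but it passed neither criterion.

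At Pd21 no member was called between the diets. Limma passed none of the 10, and over all 13350 genes tested 0% were called higher and 2.23% lower. The log2 fold changes of the members ran from 0.08 (Nlrp5) to 0.41 (Nlrp9a) with standard errors from 0.16 to 0.30 and adjusted p-values from 0.671 to 0.9996. At an unadjusted p under 0.05 only Nlrp4a would have passed in limma (0.37, SE 0.16), as 0.285% of all genes did in this direction, with 29.2, 22.8 and 22.5 FPKM in F1-Control and 33.1, 28.6 and 35.1 FPKM in F1-HHcy. Every member had overlapping groups, while 1.92% of all genes lay higher and 8.61% lower without overlap. Nlrp9c was 19.9, 13.6 and 10.9 FPKM in F1-Control and 19.4, 15.7 and 19.6 FPKM in F1-HHcy, and Nlrp14 was 356, 202 and 335 FPKM against 371, 269 and 289 FPKM. Nlrp5 ranged from 73.4 to 155 FPKM in F1-Control and from 104 to 166 FPKM in F1-HHcy.

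Between Pd3 and Pd7 the mean level in F1-Control fell slightly for Nlrp4c and Nlrp4f and rose for the other members. Of the 10 tested, 7 were called higher at Pd7 and none lower, with 6.9% of the 13336 genes tested called higher and 7.59% lower. Nlrp2, Nlrp9a, Nlrp9b and Nlrp9c entered this test through Pd7 alone, so that their calls are no support for the count. Among the other members Nlrp4a, Nlrp4b and Nlrp14 were called. Nlrp4a reached 1 FPKM in 1 Pd3 library and Nlrp4b in 2, so that both also passed the filter only with the help of Pd7. Nlrp14 reached 1 FPKM in all libraries of both days. The rise was 2.83 on the log2 scale for Nlrp4a (SE 0.23, adjusted p = 0.000216), 2.68 for Nlrp4b (SE 0.24, adjusted p = 0.000365) and 1.87 for Nlrp14 (SE 0.22, adjusted p = 0.00117). For the 4 genes that entered through Pd7 alone it was 2.97 (Nlrp2), 1.94 (Nlrp9a), 3.16 (Nlrp9b) and 1.52 (Nlrp9c), with adjusted p-values from 0.000142 to 0.00264. Nlrp5 did not pass the test (0.65, SE 0.28, adjusted p = 0.151), and Nlrp4c and Nlrp4f were near 0 (-0.06 and -0.07). Without 1 of the Pd7 libraries those 4 genes were no longer tested, and 3 calls were left.

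In F1-HHcy the same interval gave no call by the adjusted p, for the members or for any of the 13257 genes tested, at 0% in either direction. By the looser criterion 6 members were higher at Pd7, against 5.73% of all genes, and 2 were lower, Nlrp4c and Nlrp5, against 5.36%. The log2 fold changes of the 6 were 1.30 (Nlrp2), 1.40 (Nlrp4a), 0.88 (Nlrp4b), 1.13 (Nlrp9a), 1.75 (Nlrp9b) and 1.73 (Nlrp9c), and their adjusted p-values lay between 0.134 and 0.193. Nlrp4c was at -0.69, Nlrp5 at -0.94 and Nlrp14 at -0.10. One library weighed on this: without F1-HHcy Pd3 replicate 1, 4 members were called higher and 2 lower. In 1 model of all 18 libraries 3 members were called higher.

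The F1-HHcy libraries at Pd3 were also placed against the range of the F1-Control libraries at Pd7, as a description. Replicate 1 lay above that range for 6 members and below it for 4. Replicate 2 lay within the range for 8 members and above it for Nlrp4a and Nlrp4b. Replicate 3 lay below the range for 7 members. The spread among these 3 libraries was the widest of the 6 groups for Nlrp2, with an SD of 6.16 FPKM around a mean of 8.85 FPKM.

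The difference of the diet effect between Pd3 and Pd7 was tested itself, in 1 model of the 6 groups. It passed for Nlrp4b and Nlrp14, both with a smaller effect at Pd7, while 0.308% of the 14607 genes tested were called in this direction and 0.103% in the other. The effect on Nlrp14 went from 1.48 to -0.50, a difference of -1.97 (SE 0.39, adjusted p = 0.0359), and that on Nlrp4b from 2.74 to 0.93, a difference of -1.81 (SE 0.37, adjusted p = 0.0411). Both rest on single libraries, since leaving out 1 of the 18 gave 0 to 5 calls, and with a replicate block or without the filter there was none. For the other 8 members the difference ran from -1.67 (Nlrp2) to 0.22 (Nlrp9c) with adjusted p-values from 0.165 to 0.886. Between Pd7 and Pd21 no member passed by the adjusted p in limma, although 0.986% and 2.9% of the genes did in the higher and lower direction. At an unadjusted p under 0.05, Nlrp4c and Nlrp5 passed in the higher direction, with 8.15% of all genes, and Nlrp4a and Nlrp9c in the lower, with 11.2%. Nlrp4c came nearest (0.94, SE 0.30, adjusted p = 0.103).

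The members were then set against Ddx4 and Dazl, RNA-binding proteins of germ cells, as a description of their level relative to these 2 markers. The mean of the 2 markers was 31.6 to 42.6 FPKM in F1-Control and 12.0 to 26.6 FPKM in F1-HHcy at Pd3, and 13.7 to 19.5 against 8.51 to 9.82 FPKM at Pd7. At Pd21 it was 8.14 to 12.2 against 11.7 to 15.7 FPKM. The markers themselves were thus lower in F1-HHcy at Pd3 and Pd7, which raises the ratio of every gene there. They also fell within F1-Control from Pd3 to Pd7, so that the ratio cannot be read as a level per germ cell. Relative to them, 64.4% of all genes tested lay above the controls in all F1-HHcy libraries at Pd3 and 0.836% below, and 79.2% lay above and 1.63% below at Pd7. Of the members, 8 of the 9 with a ratio in every library were above at Pd3. The 8 include Nlrp2, Nlrp9a and Nlrp9b, which entered through F1-HHcy alone, so that their part in this count is no support. At Pd7 8 of the 10 were above, a share near that of all genes, and Nlrp4c was below. At Pd21 all 10 overlapped, while 0.0375% of all genes lay above and 25.8% below.

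The ratios of single members are given as values. Nlrp5 relative to the markers was 1.86 ± 0.58 (log2 ratio, SD, n = 3) in F1-Control and 3.49 ± 0.21 in F1-HHcy at Pd3, without overlap, and 3.58 ± 0.36 against 3.49 ± 0.40 at Pd7. Nlrp4f was 1.13 ± 0.28 against 2.08 ± 0.34 at Pd3 and 2.13 ± 0.25 against 2.73 ± 0.09 at Pd7. Nlrp14 was 1.69 ± 0.55 against 4.18 ± 1.06 at Pd3 and 4.64 ± 0.33 against 5.02 ± 0.09 at Pd7. For Nlrp4a the ratio was -5.34 ± 0.97 against -0.53 ± 1.64 at Pd3 and -0.43 ± 0.59 against 1.91 ± 0.18 at Pd7. For Nlrp4c it was -2.73 ± 0.40 against -1.99 ± 0.41 at Pd3, with overlap, and -1.74 ± 0.09 against -1.94 ± 0.11 at Pd7.

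**Figure D3:**
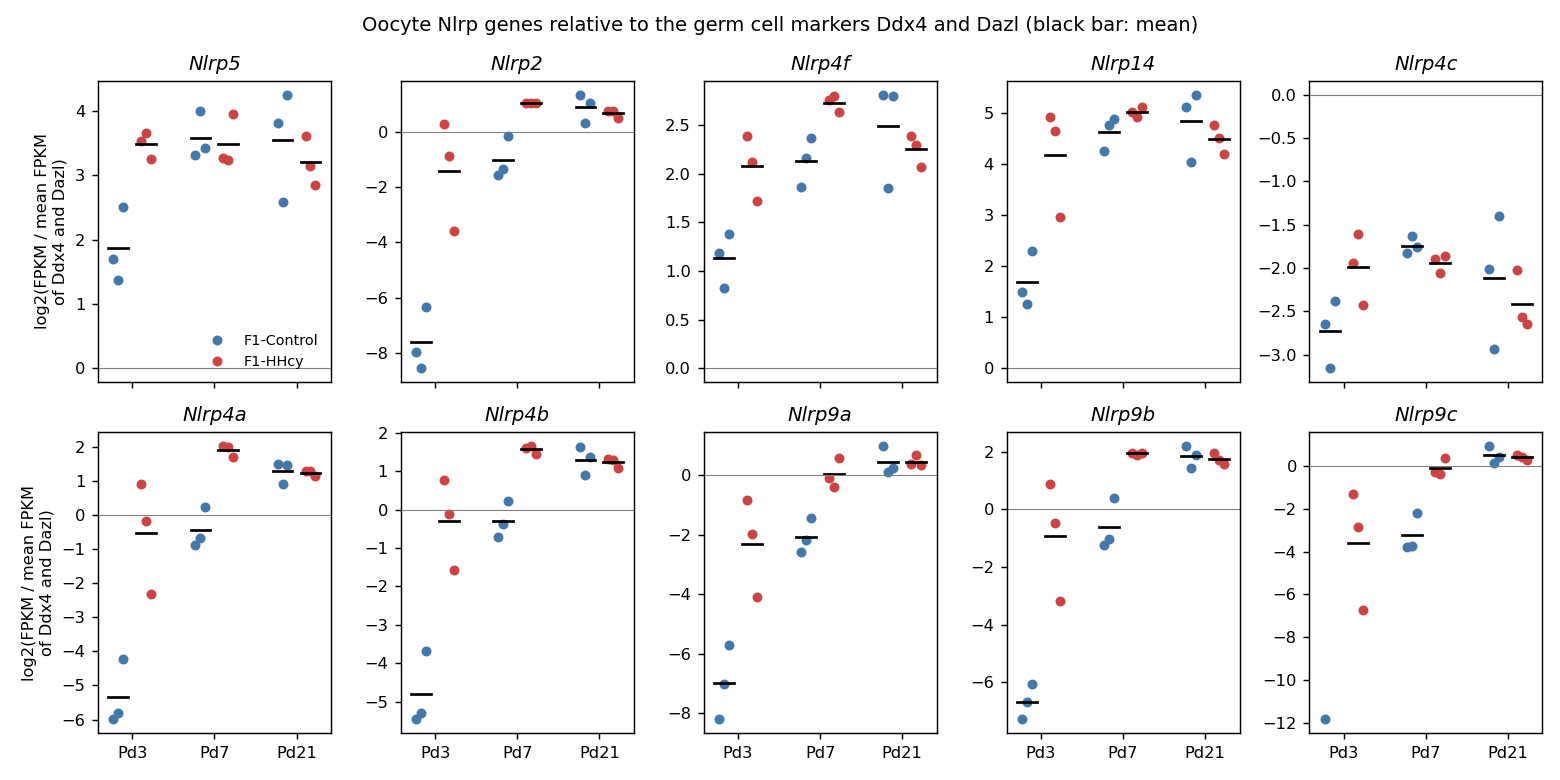
Log2 ratio of each member to the mean FPKM of Ddx4 and Dazl in the same library, by postnatal day, with blue points for F1-Control, red points for F1-HHcy and a black bar for the mean of 3 libraries; the 2 F1-Control libraries with 0 fragments of Nlrp9c have no point. The groups lie apart for 8 members at Pd3 and overlap for all 10 at Pd21. On this scale 64.4% of all genes tested lay above the controls at Pd3. Of the 8, Nlrp2, Nlrp9a and Nlrp9b passed the filter through F1-HHcy alone.

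Other genes of the oocyte were counted from lists written from general knowledge. Of the 5 SCMC partners, Khdc3 was called higher in F1-HHcy at Pd3 (log2 fold change 1.03, SE 0.14, adjusted p = 0.0211), and at Pd7 Padi6, needed for the cytoplasmic lattices of the oocyte (-1.34, SE 0.32, adjusted p = 0.0284), and Ooep (-0.90, SE 0.24, adjusted p = 0.0416) were called lower. Of 9 tested genes of the growing oocyte, 4 were called higher at Pd3, with Zar1 at 2.62, Npm2 at 1.53, Gdf9 at 1.85 and Zp3 at 1.15. At Pd7 the growing oocyte genes split as the members did, with Bmp15 (1.82) and Oosp1 (0.90) called higher and Zp2, a zona pellucida protein, called lower (-1.17). All 9 rose in F1-Control from Pd3 to Pd7, led by Oosp1 at 4.17.

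Genes of the resting oocyte and its meiosis were lower. Of 7 oocyte transcription factors, 6 were called lower in F1-HHcy at Pd7, among them Sohlh1 (-2.66), Sohlh2 (-1.94) and Figla (-2.17), and Taf4b was called higher. Of 5 germ cell genes, Mael (-2.11), Ddx4 (-1.16) and Dppa3 (-1.16) were called lower at Pd7, and of 6 tested genes of meiotic prophase 5 were. At Pd3 no transcription factor or germ cell gene was called, with median log2 fold changes of -0.71 and -0.69, while Lhx8, Sohlh1, Sohlh2, Dazl, Ddx4 and Rnf17 passed limma at an unadjusted p under 0.05 with lower values, as 12.6% of all genes did. Of 20 other NLR and inflammasome genes, 5 were abundant enough to be tested for Pd3, 3 for Pd7 and 5 for Pd21, and limma called none of them (adjusted p under 0.05), nor did any pass the looser criterion. At an unadjusted p under 0.05, Il18 passed at Pd3 (-0.56) and Pycard at Pd7 (-0.44, as did 15.9% of all genes in this direction). Their summed level was 19.4 to 36.4 FPKM over all 18 libraries. At Pd21 no gene of these lists was called.

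**Figure D4:**
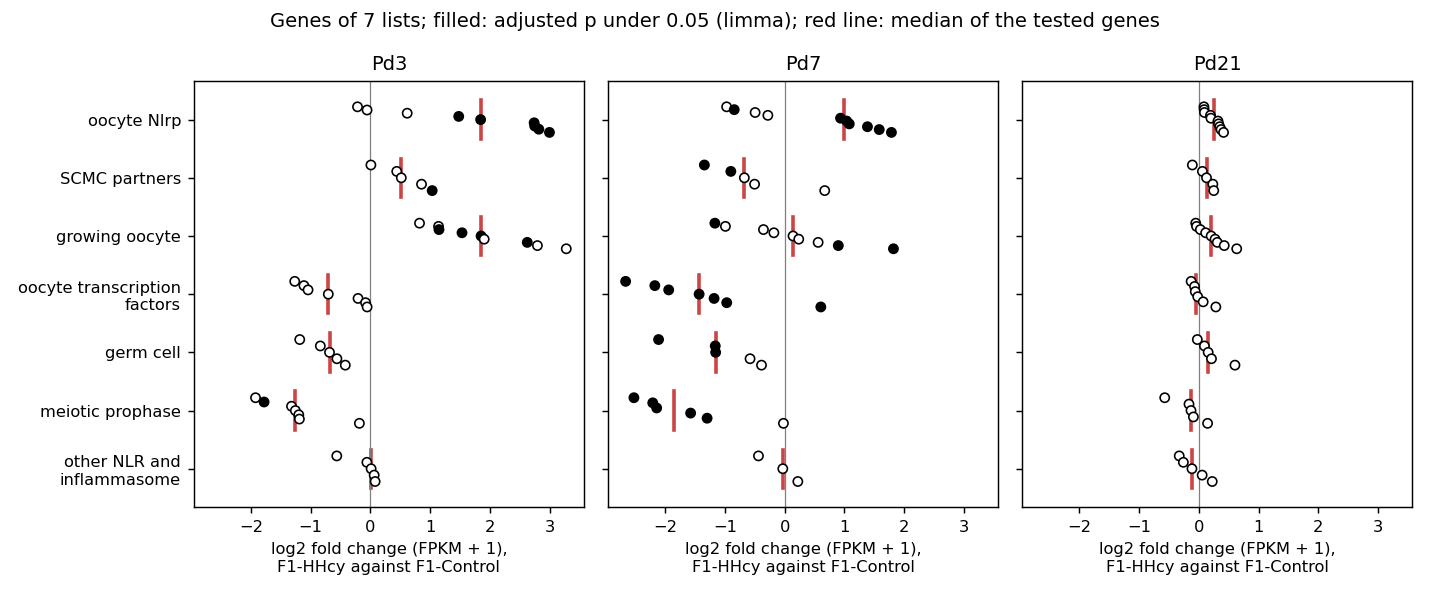
Log2 fold changes of F1-HHcy against F1-Control at Pd3, Pd7 and Pd21 for the tested genes of 7 lists, 1 circle per gene, filled for an adjusted p under 0.05 and with a red line at the median of the list. At Pd7 the oocyte Nlrp genes have a median of 0.99, the oocyte transcription factors of -1.43 and the meiotic prophase genes of -1.86, while all medians lie between -0.13 and 0.26 at Pd21.

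The 10 genes whose levels were most like the mean profile of the members were found over the 18 libraries among 14597 genes, by Pearson's r on log2(FPKM + 1). They were Fbxw14 (r = 0.993), Pla2g4c (0.992), Fbxw28 (0.990), Klf17 (0.988), Fbxw21 (0.988), Fbxw16 (0.985), Pramel26 (0.983), Oas1e (0.983), Eif4e1b (0.982) and E330011O21Rik (0.982). The libraries share age and diet groups, so that r describes a common pattern across the 6 groups. Among the members r was 0.995 for Nlrp2 with Nlrp9b, 0.991 for Nlrp4a with Nlrp4b and 0.979 for Nlrp9a with Nlrp9c. It was -0.71 for Nlrp4a with Nlrp4c. Nlrp4c, Nlrp4f and Nlrp5 each had a negative r with Nlrp2, Nlrp4a, Nlrp4b, Nlrp9a, Nlrp9b and Nlrp9c. These values ran from -0.83 (Nlrp4c with Nlrp9c) to -0.11 (Nlrp5 with Nlrp4b). The mean profile thus does not describe Nlrp4c, Nlrp4f and Nlrp5. The bases before the RefSeq starts of Nlrp2 and Nlrp9b, the latter inside its gene, were identical at 38 of only 62 aligned bases. Nlrp4c was closest to Nlrp4f (0.860) and Nlrp5 (0.750).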

How the data were processed

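Ovarian RNA of 18 libraries was sequenced by the authors from stranded poly-A libraries. The labels name FastQC 0.11.9, Trimmomatic 0.39, STAR 2.7.9a, featureCounts 2.0.1 and DESeq2 1.36.0 with build GRCm38 (mm10), without saying which made the values. The authors deposited 1 value per gene symbol without naming the unit. The deposited values were read as FPKM because 1 length per gene turned 27291 of 27294 genes (above 0 in at least 3 libraries) into whole fragment numbers within 0.002.

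Limma 3.58.1 in R 4.3.3 was run on log2(FPKM + 1) with a variance trend, on genes that reached 1 FPKM in 3 or more libraries of the comparison. Each diet comparison used 6 libraries, and differences between days used all 18 in 6 groups. Fold changes on this scale understate the change of low genes. Calls used an adjusted p under 0.05, and the study's looser criterion was an alternative, as were a pseudocount of 0.1, no filter, median-ratio scaling, limma-voom on recovered fragments scaled by library totals, a replicate block, 1 model of all libraries and each library left out in turn. The test was tried on simulated data.

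The members, gene lists and tests were chosen with earlier results of these data known. All 10 members were named, with up to 3 genes of smallest p from each oocyte or NLR list and the 10 genes most like the members. Zp3 was named in addition, after its values were seen, as were the fragment numbers of Nlrp9c. Same-numbered replicates deviated together in F1-Control from Pd3 to Pd7 (correlations 0.134, 0.262 and 0.292) and not in the other comparisons. No library was left out, and no replicates agreed within sampling noise. Python 3.11.15 with pandas 2.3.3, numpy 2.4.6, biopython 1.88 and matplotlib 3.10.9 was used for sequences and figures.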

Additional observations from a re-analysis of the deposited data

Results flagged for a closer look

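The effect of the maternal diet differed between Pd3 and Pd7 for 2 members by the test of the difference itself (limma, 18 libraries). For Nlrp14 the difference was -1.97 on the log2 scale (SE 0.39, adjusted p = 0.0359), from 1.48 at Pd3 to -0.50 at Pd7. For Nlrp4b it was -1.81 (SE 0.37, adjusted p = 0.0411), from 2.74 to 0.93. Over all alternatives the adjusted p ranged from 0.00288 to 0.144 for Nlrp14 and from 0.00223 to 0.151 for Nlrp4b.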

How the results depend on the processing

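Over 1027 refits of single members, 918 kept direction and side of the threshold, 76 kept the direction but lost the call, 17 gained a call and 16 turned the direction. Members called higher at Pd3 (6) fell to 0 without the filter, 2 with limma-voom and 0 with the replicate block, and ranged from 0 to 3 with 1 library left out. Members called higher at Pd7 (6) fell to 1 without the filter. Members called lower at Pd7 (1) became 0 without the filter, 2 by the study's criterion and 0 to 2 with a library left out. From Pd3 to Pd7, F1-Control calls (7) ranged from 3 to 7 with a library left out. In F1-HHcy, no member was called higher, but 3 were in 1 model of all libraries and 6 by the study's criterion, with 0 to 4 when a library was left out; none was called lower, but 2 were by that criterion and 0 to 2 with a library left out. The differences between Pd3 and Pd7 (2 calls) fell to 0 without the filter and with the replicate block, and ranged from 0 to 5 with a library left out. Those between Pd7 and Pd21 (0 calls) ranged from 0 to 3. The replicate block changed no other count of calls. Same-numbered replicates deviated together, weakly, only in F1-Control from Pd3 to Pd7, and whether the numbers mark a pairing is not given. Where leaving out a library takes a gene below the filter, it is not tested. Otherwise the cause was not tested.

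Directions turned only for members without a call in that comparison. With a library left out, Nlrp4f at Pd3 ranged from -0.16 to 0.077. At Pd21 Nlrp4c ranged from -0.092 to 0.24 (-0.047 without F1-HHcy replicate 1), Nlrp5 from -0.26 to 0.28 (-0.12) and Nlrp14 from -0.17 to 0.24 (-0.050). In F1-Control from Pd3 to Pd7 Nlrp4c ranged from -0.17 to 0.083 (0.0018 without Pd3 replicate 3), and Nlrp4f was 0.0046 with median-ratio scaling. In F1-HHcy Nlrp14 ranged from -0.43 to 0.15 (0.013 without Pd7 replicate 2). The difference between Pd3 and Pd7 for Nlrp9c was -1.82 with a pseudocount of 0.1 and -5.66 with limma-voom, and ranged from -0.41 to 0.71 with a library left out (-0.026 without F1-HHcy Pd7 replicate 3). Its F1-Control libraries at Pd3 held 0, 0 and 1 fragments.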
